A study of Rattus norvegicus with 15 samples.

Results

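Long noncoding RNA genes of the rat adrenal medulla were described across normal medulla, medullary hyperplasia and pheochromocytoma. They were taken from the 3 deposited tables of genes that the authors had called between these groups. A gene was a member if its annotation gave the biotype lincRNA, antisense, sense_intronic or processed_transcript, if it did not lie on X or Y, and if its mean raw read count reached 10 in at least 1 group. The rule kept 167 of the 8621 listed genes, after 15 of 262 genes with these biotypes were removed for lying on X or Y and 80 for low counts. The members are therefore genes that the authors had found to differ, and the edgeR calls below, made on the same samples, describe them and are no separate support for a difference. Among the members were 147 lincRNA, 16 processed_transcript, 3 antisense and 1 sense_intronic genes.

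The label went against the data for 14 members: each is a processed_transcript gene that carries the symbol of a protein-coding gene, and RefSeq lists 13 of these symbols as protein-coding (Lace1 under its current symbol Afg1l), with Tnxb unmatched. These 14 are called symbol members below and are kept apart from the 153 members that carry only a clone, contig or locus name. Of 53 symbols of well-studied long noncoding RNAs that were looked up, H19, Meg3 and Malat1 among them, 1 was listed, Snhg11, and the tables give it as protein-coding. Just outside the count floor lay AABR07043190.1 with a highest group mean of 9.6 reads, and AC129843.1, AABR07024641.1, AABR07059380.1 and AABR07043365.1 with 9.8 reads each. Just inside it lay AABR07007853.1 with 10.8, AC134759.1 with 11, AABR07017159.2 and AABR07072272.1 with 11.4 and AABR07072853.2 with 11.6 reads.

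Long noncoding RNAs are transcribed by RNA polymerase II, often spliced and polyadenylated, and carry no long open reading frame. Many are made at low levels and in few cell types, and many start close to the promoter of a coding gene, where the RNA or the act of its transcription can alter the neighbour. A known example is the transcript divergent from Hand2, described in the developing heart, and Hand2 itself is also needed for the sympathetic and chromaffin lineage.

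RNA sequencing of poly-A selected libraries was done on macrodissected adrenal medulla of 15 rats, 5 per group, all of the strain given as Sprague-Dawely. WT rats were wildtype and aged 7 to 9.5 months, HYP rats were MENX and aged 4 to 5 months with a hyperplastic medulla, and PCC rats were MENX and aged 7 to 9.5 months with pheochromocytoma. MENX rats carry a spontaneous frameshift in Cdkn1b, the gene of the cell cycle inhibitor p27, in all tissues and from birth, and develop several endocrine tumours. HYP rats differed from WT rats in genotype and were younger, so genotype, age and lesion cannot be told apart in that comparison. PCC and WT rats were of like age but differed in genotype, so genotype and tumour cannot be told apart there. The labels do not say which PCC rats bore the advanced tumours that the study names. Reads counted on genes, recovered from counts, FPKM and gene lengths, ranged from 16315018 in HYP replicate 3 to 23831269 in PCC replicate 1.

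Levels of a gene across samples are given as counts scaled to a common library size (CPM) on library sizes scaled by TMM, always in the order of replicates 1 to 5, and levels between genes as deposited FPKM, which are per length of the gene. Across genes, WT replicate 5 and PCC replicate 4 correlated least with the other rats of their groups (mean r = 0.945 and 0.920 over all listed genes, 0.917 and 0.838 over the members), and counts are given with and without them. Markers of other cell types moved with the groups. The summed CPM of 9 of 14 adrenal cortex markers, led by the steroid 21-hydroxylase Cyp21a1, was 27988, 26251, 41697, 58565 and 54785 in the WT rats, 22555, 12685, 31734, 22488 and 18672 in the HYP rats and 13008, 2875, 10439, 893 and 14550.0 in the PCC rats. WT replicates 4 and 5 held the most cortex RNA and PCC replicates 2 and 4 the least. The summed CPM of 8 of 12 chromaffin markers, led by the tyrosine hydroxylase Th, was 5931, 7410.0, 5412, 5051 and 1708 in the WT rats, 12796, 10922, 8026, 9974 and 12264 in the HYP rats and 28401, 17001, 16217, 22189 and 14615 in the PCC rats. Every PCC rat lay above every HYP rat and every HYP rat above every WT rat, with WT replicate 5 lowest. Markers not counted here are not listed with a value in all 15 rats. In these bulk samples, fewer cells of a type and less RNA per cell cannot be told apart, and the part of the markers' shift in the members' levels was not tested.

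The summed CPM of 6 of 6 proliferation markers, led by Aurkb, was 16.2, 15.1, 14.9, 17.2 and 24.0 in the WT rats, 70.4, 95.7, 68.9, 61.1 and 68.7 in the HYP rats and 121, 291, 159.8, 251 and 111 in the PCC rats. Proliferation markers were thus highest in the PCC rats, with no overlap between groups. The summed CPM of 5 of 9 endothelial markers, led by the VEGF receptor Kdr, was 532, 498, 426, 515 and 533 in the WT rats, 298, 297, 359.5, 315 and 284 in the HYP rats and 182, 186, 293, 179 and 319.9 in the PCC rats. This sum was highest in the WT rats, while HYP and PCC rats overlapped. Vwf, 1 of the 5, went the other way, with means of 15.0, 22.0 and 43.9 CPM in WT, HYP and PCC rats and a log2 fold change of 1.48 ± 0.28 in PCC against WT. The part of these lists in the members' levels was not tested either.

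Most members were weakly expressed. Among the 106 members without a coding symbol that have values in all 15 rats, the median of the mean FPKM was 1.62, with 7 genes above 10 FPKM and 38 below 1 FPKM. For 5186 listed protein-coding genes that median was 10.4 FPKM, and for 11 symbol members it was 18.3 FPKM. Exons of all 153 members without a coding symbol summed to a median of 1069 bases, from 241 to 5459 bases, on gene bodies with a median span of 5855 bases. Summed, the 106 members held 453, 471, 449, 481 and 406 CPM in the WT rats, 434, 412, 426, 366 and 412 in the HYP rats and 495, 473, 399.7, 495 and 381 in the PCC rats. The means were 452 ± 28.7 CPM (SD, n = 5) in WT, 410.2 ± 26.5 in HYP and 449 ± 54.4 in PCC rats, and the groups overlapped, with WT replicate 5 the lowest WT rat. The 11 symbol members held 1825, 1689, 1851, 2514 and 2905 CPM in the WT rats, 1409, 1076, 1362, 1441 and 1216 in the HYP rats and 1038, 774, 976, 715 and 1042 in the PCC rats, highest in WT replicates 4 and 5 and lowest in PCC replicates 2 and 4. Every WT rat lay above every HYP rat and every HYP rat above every PCC rat, with means of 2157 ± 527 CPM (SD, n = 5) in WT, 1301 ± 152 in HYP and 909 ± 154 in PCC rats. Tnxb, Mlxipl and Syne2, with WT means of 791, 585 and 423 CPM, made up most of this sum in the WT rats. The symbol members did not all fall. Of 13 tested in PCC against WT, 6 were called higher and 5 lower, beside 46.7% and 38.5% of all tested genes. Relative to all reads on genes without TMM, the means were 416 (WT), 415 (HYP) and 489 (PCC) for the 106 members and 1922, 1316 and 984 for the symbol members. On that scale, HYP and PCC rats overlapped for the symbol members, with PCC replicate 5 at 1144.2 and HYP replicate 2 at 1139.2.

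Among listed genes with values in all rats, members or not, most group means followed the order of the lesions. Of 117 members with values in all rats, 43 (36.8%) were ordered WT below HYP below PCC and 56 (47.9%) WT above HYP above PCC, while HYP rats were highest for 13 (11.1%) and lowest for 5 (4.27%). Among all 5492 listed genes with such values the shares were 44.0%, 40.9%, 7.56% and 7.48%. The comparisons share samples, so this order is not a separate result for each step. Values in all rats exist only for genes that the authors had called in more than a single comparison. That choice shapes which orders can appear, so nothing is read from these shares or from those at both steps below. With no overlap between neighbouring groups at both steps, 4 members increased in level from WT over HYP to PCC (AABR07045483.1, AABR07027407.1, AABR07051787.1 and Astn1) and 4 decreased (Syne2, AABR07007717.1, AABR07057436.1 and AABR07036413.1), 3.42% each. Of all 5492 listed genes, 381 (6.94%) increased and 143 (2.6%) decreased in this way.

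PCC and WT rats were compared to ask what distinguishes the tumour of MENX rats from the normal medulla of wildtype rats of the same age. Called members that averaged 1 CPM or more and whose groups did not overlap were ranked by log2 fold change. The largest increases in PCC rats were in clone-named lincRNA genes on chromosomes 20, 16, 17 and 19 and in the symbol member Sv2b. The largest decreases were in AABR07044837.2 and AABR07030363.1. Members averaging under 1 CPM, such as AC130741.1 (4.92 ± 0.77 on the log2 scale, and 5.94 without WT replicate 4) and AABR07045400.1 (-3.56 ± 0.59, and -4.34 without PCC replicate 5) are not ranked here. Of 150 listed members, 33 were removed by the filter on low counts. Of the 117 that were tested, 47 rose and 51 fell in PCC rats by edgeR at an adjusted p under 0.05, where 46.7% of all tested genes were called higher and 38.5% lower. Every PCC rat lay above every WT rat for 45 members and below for 38, as for 37.5% and 26.1% of all tested genes. Nothing is read from these shares, since the authors' calls on the same samples chose the genes. The median log2 fold change of the tested members was -0.91, beside 0.44 over all 7001 tested genes. Both turned with at least 10 counts required in every sample, to 0.86 over 50 members, beside -0.28 over 5943 genes, and the members' median was -0.54 with a floor of 50 reads for membership. Among the members without a coding symbol, 41 rose and 46 fell. Without WT replicate 5 the counts were 50 and 59, without PCC replicate 4 they were 48 and 54, and without both 45 and 57. With each library scaled by its counts summed over the listed genes, without TMM, which shifted genes with over 500 reads by a median of 0.50 on the log2 scale, 54 rose and 30 fell, so that the share of higher calls was 64.3% where it had been 48.0%. With 1 library left out, calls of named members were lost in 5 of 10 fits for AABR07036331.2, 5 for AABR07054554.1 and 1 for AABR07035782.1.

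AABR07045483.1 (ENSRNOG00000060038, chromosome 20, 48814197 to 48816205, minus strand, Rn06), 39709 bases from Qrsl1, gave 0.0949, 0.0474, 0.159, 0.0660 and 0 CPM in the WT rats, 1.44, 1.51, 0.674, 1.09 and 1.27 in the HYP rats and 3.39, 6.83, 7.71, 11.8 and 2.80 in the PCC rats. WT rats were near 0, and no group overlapped another. The log2 fold change of PCC against WT was 6.25 ± 0.63 (SE from the edgeR fit, 5 against 5 rats, as for all fold changes below). AABR07026579.1 (ENSRNOG00000054303, chromosome 16, 84545304 to 84547030, plus strand), 49721 bases from LOC689713, gave 0.142, 0, 0.0531, 0.132 and 0 CPM in the WT rats, 0.502, 0.336, 0.0613, 0.115 and 0.306 in the HYP rats and 9.10, 6.40, 2.98, 3.62 and 0.905 in the PCC rats. All PCC rats lay above all others, with PCC replicate 5 nearest to them, and WT and HYP rats overlapped. Here the log2 fold change was 5.94 ± 0.82 against WT and 3.99 ± 0.67 against HYP. AABR07026984.1 (ENSRNOG00000052412, chromosome 17, 8438660 to 8441221, plus strand) lies 9322 bases from Tgfbi, the gene of an extracellular matrix protein, and points away from it. It gave 0.474, 0.7103, 0.265, 1.91 and 0.0726 CPM in the WT rats, 2.95, 1.57, 1.47, 2.18 and 1.78 in the HYP rats and 8.12, 34.0, 2.13, 62.7 and 3.19 in the PCC rats. PCC replicates 2 and 4 were far above the other PCC rats, and the lowest PCC rat lay just above the highest WT rat. In the fit, the log2 fold change against WT was 4.98 ± 1.08, and 4.12 without PCC replicate 4 and 5.69 without WT replicate 4. Tgfbi itself gave 6.55, 5.68, 5.89, 9.83 and 5.37 CPM in the WT rats, 9.54, 6.38, 6.98, 8.72 and 9.23 in the HYP rats and 26.5, 42.4, 13.6, 24.98 and 13.4 in the PCC rats. Its PCC values lay above those of all other rats, highest in replicate 2.

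AABR07043098.1 (ENSRNOG00000054562, chromosome 19, 20559528 to 20568309, minus strand) lies 39198 bases from Cbln1, the gene of a secreted organiser of synapses, and gave 0.237, 0.331, 0.0531, 0 and 0 CPM in the WT rats, 0.816, 2.52, 0.858, 1.95 and 2.09 in the HYP rats and 0.928, 9.10, 1.702, 2.81 and 2.71 in the PCC rats. HYP and PCC rats overlapped and all lay above the WT rats, and PCC replicate 2 was highest. By edgeR, the log2 fold change against WT was 4.54 ± 0.90 in PCC and 3.43 ± 0.64 in HYP rats. It was 3.76 in PCC rats without PCC replicate 2, and 5.25 in PCC and 4.12 in HYP rats without WT replicate 2. Cbln1 gave 0.190, 0.0474, 0.265, 0.528 and 0.145 CPM in the WT rats, 2.196, 5.15, 4.35, 3.21 and 4.64 in the HYP rats and 1.11, 36.2, 3.03, 8.90 and 7.15 in the PCC rats. It too was highest in PCC replicate 2 and lay above all WT rats in both lesions.

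Among lower members, AABR07044837.2 (ENSRNOG00000060235, chromosome 20, 23073501 to 23083780, plus strand), 190829 bases from the gene of the histone demethylase-like protein Jmjd1c, gave 6.64, 7.95, 5.68, 17.4 and 2.61 CPM in the WT rats, 0.816, 0.336, 2.27, 0.860 and 0.459 in the HYP rats and 0.464, 0.0963, 0.236, 0.238 and 0.172 in the PCC rats. All WT rats lay above all MENX rats, highest in WT replicate 4, and HYP and PCC rats overlapped. As fitted, the log2 fold change against WT was -5.08 ± 0.58 in PCC rats and -3.10 ± 0.58 in HYP rats, the latter -3.72 without HYP replicate 3. AABR07030363.1 (ENSRNOG00000051683, chromosome 10, 82582078 to 82582580, minus strand), 163221 bases from the collagen gene Col1a1, gave 12.3, 22.8, 11.2, 26.2 and 3.78 CPM in the WT rats, 1.69, 0.448, 5.02, 1.66 and 1.07 in the HYP rats and 2.65, 0.337, 0.709, 0 and 0.905 in the PCC rats. WT and PCC rats did not overlap, whereas HYP replicate 3 lay above the lowest WT rat. With all rats, the log2 fold change of PCC against WT was -4.13 ± 0.85, and -5.03 without PCC replicate 1. Col1a1 went the other way: 1.35 ± 0.29 on the log2 scale in PCC against WT rats. AABR07007717.1 (ENSRNOG00000056427, chromosome 2, 25564884 to 25565757, plus strand), 172757 bases from Arhgef28, gave 29.5, 30.7, 30.8, 36.8 and 51.0 CPM in the WT rats, 25.7, 11.6, 21.8, 17.9 and 15.4 in the HYP rats and 5.43, 1.59, 5.44, 0.476 and 9.82 in the PCC rats. Its groups did not overlap at either step, and PCC replicates 2 and 4 were lowest, as they were for the cortex markers. From these values, the log2 fold change of PCC against WT was -3.00 ± 0.59, whereas Arhgef28 gave 2.39 ± 0.38. AABR07058017.2 (ENSRNOG00000053624), 7817 bases upstream of Tmem65 on chromosome 7, gave 4.60, 3.65, 2.44, 1.78 and 2.61 CPM in the WT rats, 2.26, 1.06, 1.35, 1.09 and 1.17 in the HYP rats and 0.0464, 0.241, 0.142, 0.190 and 0.818 in the PCC rats. PCC rats lay below all others. In edgeR, the log2 fold change against WT was -3.41 ± 0.61, and -4.29 without PCC replicate 5. AABR07055146.1 (ENSRNOG00000051476), near LOC100912293 on chromosome 7, gave 2.75, 2.70, 4.67, 3.89 and 2.32 CPM in the WT rats, 0.627, 1.12, 1.16, 1.26 and 2.19 in the HYP rats and 0.232, 0, 1.37, 0.0951 and 0.0861 in the PCC rats. All WT rats lay above all MENX rats. On these counts, the log2 fold change of PCC against WT was -3.24 ± 0.81, and -4.92 without PCC replicate 3.

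**Figure D1:**
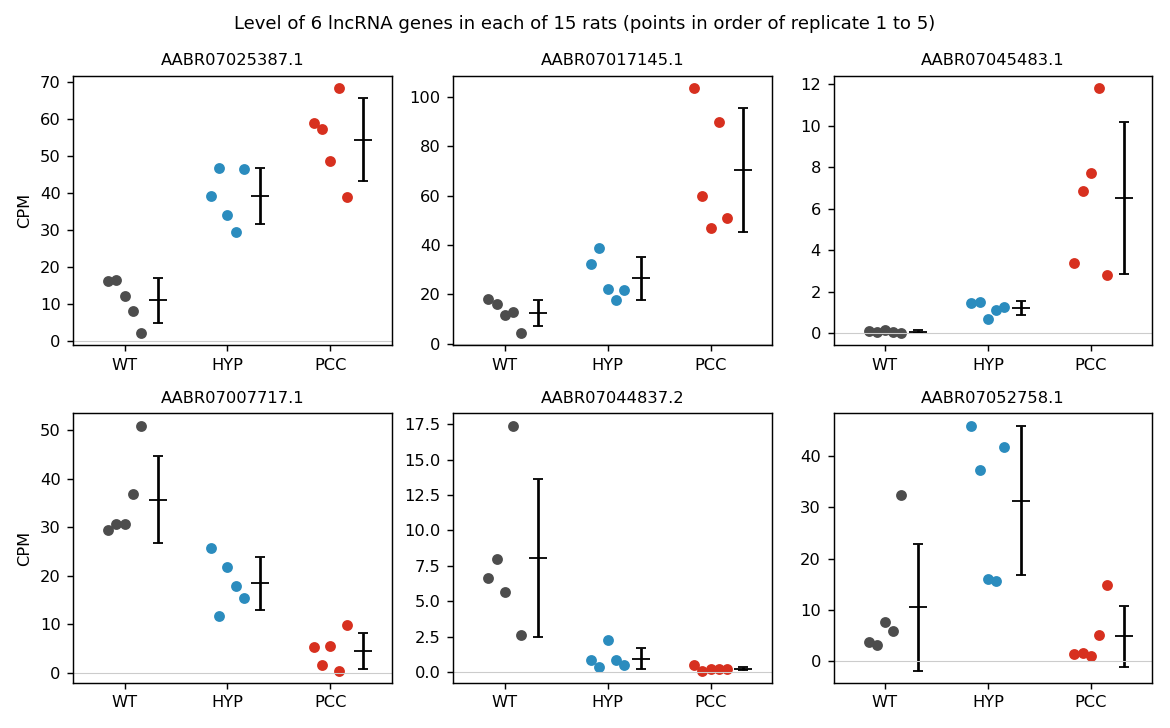
Level of 6 lncRNA genes in each of 15 rats, in CPM on a linear axis with its own range in each panel; points stand in the order of replicates 1 to 5, and bars give the mean and SD (n = 5). AABR07045483.1 and AABR07007717.1 show no overlap between any groups, and AABR07052758.1 had its highest mean in HYP rats, between 15.6 and 45.9 CPM, with WT replicate 5 at 32.4 CPM.

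In the same comparison, 3 members were at 0 in every rat of a group and were removed by the filter. AABR07050484.1, 12621 bases from Spsb1, was at 0 in all PCC rats and gave 0.712, 2.70, 0.159, 0.528 and 0.0726 CPM in the WT rats, at least 5.98-fold lower in PCC rats against a floor of 3 reads per library, and 2.64-fold without WT replicate 2. AABR07066820.1, 144874 bases from the gene of the angiogenic factor Vegfa, was at 0 in all WT rats and gave 0.139, 0.433, 0.615, 2.14 and 0.129 CPM in the PCC rats, at least 4.02-fold higher, and 1.92-fold without PCC replicate 4. AABR07072853.2, 1328 bases from Fnbp1, was at 0 in all WT rats and gave 0.278, 0.289, 0.0946, 2.09 and 0 CPM in the PCC rats, at least 3.21-fold higher, and 0.963-fold, which is no bound on a difference, without PCC replicate 4. With these genes outside the fit, the members' medians with and without bounds were equal. Floors cover counting error only.

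HYP and WT rats were compared to ask what differs in the medulla of MENX rats at the stage of hyperplasia. Within the same limits, the largest increases were in Sv2b, AABR07025385.1, AABR07025386.1, Rn60_9_0428.1 and AABR07043711.1. Of these, AABR07025385.1 and AABR07025386.1 lie 97442 and 74107 bases from Hand2, and Rn60_9_0428.1 lies 3998 bases from Sema4c. The largest decreases were in AABR07044837.2, AABR07065124.2, AC139608.1, AABR07035780.3 and AABR07047256.1. Outside the limits, AABR07045483.1 (3.79 ± 0.45), AABR07043098.1 (3.43 ± 0.64, and 4.12 without WT replicate 2) and AABR07028511.1 (2.96 ± 0.53) rose at averages under 1 CPM, and AABR07030363.1 (-2.97 ± 0.63, and -3.67 without HYP replicate 3) and AABR07054554.1 (-2.64 ± 0.80) fell with overlapping groups. Of 93 listed members, 21 were removed by the filter. Of the 72 tested, 27 rose and 32 fell, where 39.5% of all tested genes were called higher and 32.5% lower. Every HYP rat lay above every WT rat for 25 members and below for 17, as for 34.9% and 21.0% of all tested genes. Nothing is read from these shares either. The median log2 fold change was -0.94, beside -0.37 over all 4108 tested genes. Without the symbol members, 24 rose and 28 fell. Without WT replicate 5 the counts were 28 and 40, and the count of lower members was 17 without HYP replicate 2 and 17 without HYP replicate 5. With each library scaled by its counts summed over the listed genes, a median shift of 0.46, 31 rose and 5 fell, so that 86.1% of calls were higher where it had been 45.8%. With 1 library left out, calls of named members were lost in 8 of 10 fits for AABR07027407.1, 7 for AABR07006097.1, 7 for AABR07035780.2, 7 for AABR07054554.1, 6 for AABR07036413.1, 6 for AABR07045400.1, 6 for AABR07061382.2, 6 for Rn60_20_0066.11, 5 for AABR07058017.2, 5 for Rn60_1_2620.3, 3 for Mlxipl, 2 for AC139608.1 and 1 for AABR07065124.2.

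AABR07043711.1 (ENSRNOG00000060858, chromosome 19, 36242337 to 36257062, minus strand), 870446 bases from Cbfb, gave 2.04, 1.75, 1.11, 0.858 and 0.290 CPM in the WT rats, 4.64, 3.58, 2.70, 10.4 and 6.48 in the HYP rats and 3.06, 2.94, 3.59, 8.52 and 6.07 in the PCC rats. HYP and PCC rats overlapped, both above all WT rats, and replicate 4 was highest in each. The log2 fold change of HYP against WT was 2.10 ± 0.48. AABR07065124.2 (ENSRNOG00000061785), 93285 bases from Zdhhc22 on chromosome 6, gave 1.57, 1.47, 1.75, 1.39 and 3.41 CPM in the WT rats, 0.376, 0.280, 0.613, 0.975 and 1.07 in the HYP rats and 1.07, 0.144, 0.567, 0.381 and 0.861 in the PCC rats. WT rats lay above all MENX rats, and WT replicate 5 stood highest. Here the log2 fold change of HYP against WT was -1.54 ± 0.40. AABR07047256.1 (ENSRNOG00000059459, chromosome 5, 25339368 to 25341042, plus strand) lies 8886 bases upstream of Gem, the gene of a small GTPase that is quickly induced by many stimuli, and gave 1.14, 2.04, 2.44, 1.06 and 1.96 CPM in the WT rats, 0.816, 0.672, 0.613, 0.803 and 0.408 in the HYP rats and 0.557, 0.144, 0.378, 0.618 and 0.215 in the PCC rats. WT rats lay above all MENX rats, and HYP and PCC rats overlapped. In the fit, the log2 fold change against WT was -1.43 ± 0.32 in HYP and -2.20 ± 0.43 in PCC rats, beside -2.03 ± 0.39 and -3.25 ± 0.49 for Gem itself.

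PCC and HYP rats were compared to ask what separates the tumour from the earlier lesion of the same genotype, at different ages. Within the same limits, the largest increases were again in AABR07026579.1 and AABR07045483.1, with AC126640.1, AABR07017145.1 and AABR07027407.1, and the largest decreases in AABR07052758.1, AABR07055162.1, AABR07004228.1 and the symbol members Sdk1 and Syne2. Outside the limits, AABR07000382.1 (-3.51 ± 0.90) and AABR07026984.1 (3.32 ± 0.83, and 2.46 without PCC replicate 4) had overlapping groups, and AABR07058017.2 (-2.33 ± 0.58, and -3.24 without PCC replicate 5) and AABR07013729.1 (2.62 ± 0.62) averaged under 1 CPM. Of 60 listed members, 13 were removed by the filter. Of the 47 tested, 9 rose and 10 fell, where 21.8% of all tested genes were called higher and 22.6% lower. Every PCC rat lay above every HYP rat for 11 members and below for 13, as for 31.5% and 22.0% of all tested genes, and nothing is read from these shares. The median log2 fold change was -0.93, beside 0.43 over all 3148 tested genes. With at least 10 counts required in every sample it turned to 0.42 over 33 members, beside 0.42 over 2818 genes, and it was -0.20 with a floor of 50 reads for membership. Without the symbol members, 8 rose and 7 fell, and without PCC replicate 4 the counts were 9 and 7.

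These counts moved when a library of either group was left out. With 1 library left out, calls of named members were lost in 9 of 10 fits for AABR07052758.1, 9 for Stk19, 8 for AABR07004228.1, 8 for AABR07058017.2, 7 for AABR07000382.1, 7 for AABR07026984.1, 6 for Astn1, 5 for Sdk1, 4 for AABR07013729.1, 4 for AABR07055162.1 and 3 for AABR07017145.1. The count of higher members was 5 without HYP replicate 3, HYP replicate 4 or HYP replicate 5. The count of lower members was 1 without PCC replicate 2 or HYP replicate 4, 2 without PCC replicate 3 or HYP replicate 3, 3 without HYP replicate 2, 4 without HYP replicate 1 or HYP replicate 5, and 18 without PCC replicate 5. DESeq2, run with its own scaling and without the filter, so on 60 members, shifted genes by a median of -0.17 and called 13 members higher and 37 lower, so that 26.0% of calls were higher where it had been 47.4%. Scaling by counts summed over the listed genes shifted them by 0.15 and gave 9 higher and 5 lower members, 64.3% higher. The authors' size factors shifted them by 0.11 and gave 10 and 8, or 55.6% higher. A paired fit with a replicate block gave 3 and 3.

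AABR07017145.1 (ENSRNOG00000060863, chromosome 15, 12756403 to 12796711, plus strand) lies 30996 bases upstream of Fezf2, the gene of a forebrain transcription factor, and gave 18.0, 16.1, 11.5, 12.7 and 4.28 CPM in the WT rats, 32.2, 38.6, 22.3, 17.7 and 21.6 in the HYP rats and 104, 59.8, 46.9, 89.9 and 51.1 in the PCC rats. PCC rats lay above all others, highest in replicates 1 and 4, and WT and HYP rats overlapped. By edgeR, the log2 fold change was 1.29 ± 0.28 against HYP and 2.41 ± 0.40 against WT. Fezf2 gave 0.854, 0.805, 0.318, 0.0660 and 0.0726 CPM in the WT rats, 0.125, 0, 0, 0 and 0 in the HYP rats and 0.0464, 0, 0.0946, 0.0951 and 0.0431 in the PCC rats. Fezf2 was thus under 1 CPM in every rat, with WT replicates 4 and 5 among the MENX values, and no fold change is given for it. AABR07027407.1 (ENSRNOG00000057161, chromosome 17, 28825009 to 28829441, plus strand), 144647 bases from F13a1, gave 3.27, 3.60, 2.39, 3.50 and 1.67 CPM in the WT rats, 6.40, 4.65, 4.66, 4.99 and 5.46 in the HYP rats and 12.3, 14.4, 11.1, 19.6 and 10.1 in the PCC rats. The 3 groups did not overlap. As fitted, the log2 fold change of PCC against HYP was 1.25 ± 0.23. F13a1, the gene of a coagulation factor subunit, gave 1.76, 1.94, 2.39, 2.24 and 2.25 CPM in the WT rats, 6.71, 3.25, 4.35, 4.07 and 5.76 in the HYP rats and 5.57, 2.12, 3.78, 2.81 and 8.83 in the PCC rats, where HYP and PCC rats overlapped. AABR07055162.1 (ENSRNOG00000052669), 54316 bases from LOC100912293, gave 5.36, 3.88, 8.12, 5.15 and 2.54 CPM in the WT rats, 2.82, 1.85, 3.86, 2.41 and 1.94 in the HYP rats and 0.835, 0.241, 1.32, 0.238 and 0.775 in the PCC rats. WT and HYP rats overlapped and PCC rats lay below both. With all rats, the log2 fold change was -2.02 ± 0.48 against HYP. AABR07004228.1 (ENSRNOG00000059662), 1600523 bases from Arrdc4 on chromosome 1, gave 1.76, 1.75, 0.955, 1.58 and 0.944 CPM in the WT rats, 1.76, 2.63, 1.65, 1.61 and 1.68 in the HYP rats and 0.882, 0.433, 0.757, 0.618 and 1.21 in the PCC rats. PCC rats overlapped WT rats and lay below all HYP rats, and HYP replicate 2 stood highest. From these values, the log2 fold change was -1.36 ± 0.33 against HYP.

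AABR07052758.1 (ENSRNOG00000059883, chromosome 3, 74226407 to 74229066, minus strand) had its highest mean at hyperplasia. It gave 3.70, 3.13, 7.59, 5.94 and 32.4 CPM in the WT rats, 45.9, 37.3, 16.1, 15.6 and 41.7 in the HYP rats and 1.49, 1.64, 1.04, 5.23 and 14.9 in the PCC rats. Every PCC rat lay below every HYP rat. Most WT rats were low, with WT replicate 5 among the HYP values, and PCC replicate 5 was the highest of its group. In edgeR, the log2 fold change of PCC against HYP was -2.78 ± 0.71, and -3.87 without PCC replicate 5. That of HYP against WT was 1.54 ± 0.60, and 2.57 without WT replicate 5. It was not called with all rats, and was called without WT replicate 5, by DESeq2 and with a replicate block. The nearest listed coding gene, Tnks1bp1, is 1743190 bases away. A larger ratio of the HYP mean to that of the next group was found for AABR07066020.1. Its means were 0.103, 2.22 and 0.00963 CPM in WT, HYP and PCC rats.

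By deposited FPKM, the members with the highest level per length were 4 symbol members and 1 lincRNA gene. These were Tnxb at a mean of 188 FPKM over 15 rats, Mlxipl at 144, Plekha6 at 109, Syne2 at 103 and AABR07025387.1 at 82.0 FPKM. The lengths behind these FPKM were 2135, 1890, 2194 and 2450 bases for the 4 symbol members. Their listed lengths were 10743, 3315, 5846 and 20660 bases, which would give lower values, so their rank depends on the length used. AABR07025387.1 had 447 bases by both. Tnxb (ENSRNOG00000033581, chromosome 20, 4436419 to 4486680, plus strand), the gene of the matrix glycoprotein tenascin-X, gave 650.4, 603, 663, 885 and 1153 CPM in the WT rats, 442, 189, 366, 452 and 325 in the HYP rats and 170.2, 47.4, 158, 19.6 and 295 in the PCC rats. WT rats lay above HYP rats without overlap, highest in WT replicates 4 and 5, and PCC replicates 2 and 4 were lowest, the order seen in the cortex markers. On these counts, the log2 fold change against WT was -2.55 ± 0.58 in PCC and -1.19 ± 0.26 in HYP rats. The gene body overlaps that of Cyp21a1 on the opposite strand, the most abundant cortex marker, which gave 8686, 7834, 12880.0, 16667 and 19258 CPM in the WT rats, 8942, 4427, 10567, 7905 and 6368 in the HYP rats and 5166, 932, 3516, 299.9 and 5178 in the PCC rats. Cyp21a1 was likewise lowest in PCC replicates 2 and 4 and highest in WT replicates 4 and 5. The labels name the NEBNext Ultra kit, with no mention of a directional form, and give no strand setting of the counting, so reads of such overlapping genes cannot be told apart with certainty.

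Mlxipl (ENSRNOG00000046171, nearest Vps37d, 31675 bases away, chromosome 12, 24590645 to 24619639, minus strand), the gene of the glucose-responsive transcription factor ChREBP, gave 320.2, 338, 459, 964 and 844 CPM in the WT rats, 266, 117, 330.3, 255 and 164 in the HYP rats and 194, 24.9, 92.2, 3.95 and 78.9 in the PCC rats. WT replicates 4 and 5 were highest, PCC replicate 4 was lowest, and HYP replicate 3 lay above the lowest WT rat. The log2 fold change of PCC against WT was -2.91 ± 0.76, and -3.62 without PCC replicate 1. Plekha6 (ENSRNOG00000002907, nearest Kiss1, 20065 bases away, chromosome 13, 50555454 to 50578720, minus strand) gave 204, 167, 173, 155 and 168 CPM in the WT rats, 268, 234, 189, 187 and 208 in the HYP rats and 305, 321, 287, 350.1 and 278 in the PCC rats. All values of PCC rats lay above all others, and WT and HYP rats overlapped. Here the log2 fold change was 0.79 ± 0.16 against WT and 0.39 ± 0.17 against HYP, the latter not called. Syne2 (ENSRNOG00000005323, nearest Mthfd1, 129299 bases away, chromosome 6, 98844926 to 99153551, plus strand), the gene of nesprin-2, which ties the nucleus to the cytoskeleton, gave 481, 416, 368, 352 and 498 CPM in the WT rats, 219.5, 283, 281, 299 and 251 in the HYP rats and 76.2, 69.1, 119, 50.3 and 159 in the PCC rats. No group overlapped another, and PCC replicate 4 was lowest. In the fit, the log2 fold change against WT was -2.20 ± 0.30 in PCC and -0.71 ± 0.16 in HYP rats.

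For these 5 members the most alike listed genes were found by Spearman correlation of CPM over the 15 rats, given without p because the 3 groups differ and the points share their groups' shifts. Tnxb was most like Fdxr (0.993), a gene of mitochondrial steroid synthesis and a cortex marker, Ilvbl and Gpx1 (0.989 each). Mlxipl was most like Fam110c and Akr1b8 (0.989 each) and Serpina1 (0.986). Plekha6 was most like Creld2 (0.982), Ppp1r21 (0.975) and Kntc1 (0.971). Syne2 was most like the transcription factor gene Jun (0.982), Map3k5 and Myof (0.975 each). AABR07025387.1 was most like Rnf180 (0.993) and the calcium channel gene Cacna1d (0.986).

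The other symbol members follow, with Stk19 further below. Astn1 (ENSRNOG00000005667, chromosome 13, 76055410 to 76370674, plus strand), the gene of astrotactin, which binds migrating neurons to glia, gave 66.9, 69.1, 59.6, 52.3 and 12.8 CPM in the WT rats, 101, 133, 83.6, 92.4 and 118 in the HYP rats and 219, 224, 208, 222 and 139 in the PCC rats. No group overlapped another, and WT replicate 5 and PCC replicate 5 were the lowest of their groups. By edgeR, the log2 fold change was 1.88 ± 0.40 against WT and 0.83 ± 0.19 against HYP in PCC rats. Brinp2, whose start lies 6047 bases away on the opposite strand, gave 2.82 ± 0.56 against WT and was also highest in PCC rats. Sv2b (ENSRNOG00000011160, nearest Akap13, 172025 bases away, chromosome 1, 136664204 to 136842247, minus strand), the gene of a synaptic vesicle glycoprotein, gave 0.0949, 0.0474, 0.690, 0.132 and 0 CPM in the WT rats, 2.38, 4.42, 2.02, 2.92 and 3.62 in the HYP rats and 2.55, 12.7, 0.757, 0.904 and 1.55 in the PCC rats. All MENX rats lay above all WT rats, by little in PCC replicate 3, and HYP and PCC rats overlapped. As fitted, the log2 fold change against WT was 4.18 ± 1.06 in PCC rats, 2.78 without PCC replicate 2 and 5.57 without WT replicate 3. In HYP rats it was 3.86 ± 0.60, and 5.25 without WT replicate 3. Sdk1 (ENSRNOG00000001103, nearest Mmd2, 370876 bases away, chromosome 12, 14449010 to 15098786, minus strand), the gene of a synaptic adhesion protein of the immunoglobulin family, gave 48.1, 44.2, 79.2, 58.6 and 184 CPM in the WT rats, 47.9, 58.5, 68.4, 98.2 and 87.4 in the HYP rats and 16.0, 5.73, 22.6, 3.38 and 34.7 in the PCC rats. PCC rats lay below all others, lowest in replicates 2 and 4, and WT replicate 5 stood far above. With all rats, the log2 fold change was -2.32 ± 0.59 against WT and -2.23 ± 0.53 against HYP.

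Col6a3 (ENSRNOG00000019648, nearest Mlph, 68492 bases away, chromosome 9, 97926787 to 98004546, minus strand), the gene of a collagen VI chain, gave 6.74, 12.9, 7.32, 12.1 and 11.5 CPM in the WT rats, 25.3, 26.0, 16.6, 22.8 and 26.4 in the HYP rats and 16.9, 30.9, 57.8, 24.8 and 20.6 in the PCC rats. Every value of the MENX rats lay above all WT rats, and PCC replicate 3 was highest. From these values, the log2 fold change against WT was 1.54 ± 0.34 in PCC and 1.16 ± 0.22 in HYP rats. Rpgrip1 (ENSRNOG00000011809, nearest Chd8, 38195 bases away), the gene of a ciliary protein of photoreceptors, gave 3.42, 2.70, 2.81, 2.18 and 2.47 CPM in the WT rats, 2.89, 4.20, 2.76, 3.10 and 2.86 in the HYP rats and 8.87, 6.74, 3.74, 5.71 and 4.82 in the PCC rats. PCC rats lay above all WT rats, and PCC replicate 3 lay below HYP replicate 2. In edgeR, the log2 fold change of PCC against WT was 1.09 ± 0.29. Gtf2ird2 (ENSRNOG00000001482), a transcription factor gene of the Williams syndrome region, gave 16.3, 13.0, 13.3, 12.1 and 11.5 CPM in the WT rats, 20.3, 17.2, 13.0, 13.0 and 17.3 in the HYP rats and 22.2, 26.7, 19.4, 29.7 and 19.9 in the PCC rats. All values of PCC rats lay above all WT rats and overlapped HYP rats. On these counts, the log2 fold change of PCC against WT was 0.79 ± 0.21, and that of its neighbour Wbscr16 was -0.45 ± 0.17, which was not called and changed sign without TMM. Vwa3b (ENSRNOG00000023566, nearest Inpp4a, 110010 bases away), without values in PCC rats, gave 1.33, 1.23, 1.01, 1.91 and 2.25 CPM in the WT rats and 3.95, 3.69, 2.51, 3.27 and 3.37 in the HYP rats, with no overlap and a log2 fold change of 1.09 ± 0.25. Lace1 (ENSRNOG00000043033, nearest Nr2e1, 79325 bases away), the gene of a mitochondrial ATPase, and Ccdc171 (ENSRNOG00000033445, nearest Psip1, 50870 bases away) had no values in HYP rats. Lace1 gave 5.599, 4.17, 5.47, 5.54 and 12.0 CPM in the WT rats and 4.04, 5.29, 3.12, 2.90 and 3.62 in the PCC rats, with WT replicate 5 highest and the groups overlapping. Ccdc171 gave 3.18, 3.98, 2.6, 1.85 and 2.18 CPM in the WT rats and 3.48, 5.78, 5.06, 10.04 and 3.49 in the PCC rats, with PCC replicate 4 highest and the groups overlapping.

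What the members shared by position was not used by the rule. By their gene bodies and strands against the nearest listed coding gene, 46 members were divergent, 48 convergent and 66 tandem (29 upstream and 37 downstream of the coding gene), and 7 overlapped it. Of those that did not overlap, 25 lay within 5 kb, 61 at 5 to 50 kb, 61 at 50 to 500 kb and 13 beyond 500 kb. Unlisted coding genes could lie nearer. Chromosome 12 held 18 members (6.16% of its 292 listed genes) and chromosome 20 held 14 (5.43% of 258), chromosome 1 held 22 (2.06% of 1067), and chromosome 10 held 4 (0.571% of 701). There were 7 places where members lay within 100 kb of each other, the largest with 7 members on chromosome 12.

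The place with the most abundant lincRNA gene was Hand2 on chromosome 16. AABR07025387.1 (ENSRNOG00000052518, chromosome 16, 36374593 to 36388331, plus strand) starts 1047 bases from the start of Hand2 (36371489 to 36373546, minus strand) and points away from it. It gave 16.4, 16.6, 12.3, 8.25 and 2.25 CPM in the WT rats, 39.1, 46.7, 34.0, 29.5 and 46.4 in the HYP rats and 59.0, 57.2, 48.7, 68.3 and 38.9 in the PCC rats. WT rats lay below all MENX rats, lowest in WT replicate 5, and PCC replicate 5 lay among the HYP rats. The log2 fold change against WT was 2.19 ± 0.46 in PCC and 1.74 ± 0.41 in HYP rats. Hand2 gave 45.5, 45.6, 32.8, 21.7 and 6.17 CPM in the WT rats, 88.3, 47.8, 74.0, 91.8 and 103 in the HYP rats and 66.0, 175, 160.1, 248 and 139.5 in the PCC rats. Its WT rats also lay below all others, and PCC replicate 1 lay among the HYP rats. Here the log2 fold change of Hand2 against WT was 2.29 ± 0.53 in PCC and 1.35 ± 0.43 in HYP rats, where it was not called with all libraries and was called in 4 of 10 fits with 1 left out. Hand2 is itself on the list of chromaffin markers, whose levels in each rat are given above.

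On the other side of Hand2, on its own strand, lie AABR07025386.1 (ENSRNOG00000052230; 36294631 to 36297382), 74107 bases downstream, and AABR07025385.1 (ENSRNOG00000054260; 36258595 to 36274047), 97442 bases downstream. AABR07025386.1 gave 1.19, 0.616, 0.424, 0.660 and 0.145 CPM in the WT rats, 3.76, 5.93, 1.78, 2.98 and 3.37 in the HYP rats and 7.94, 10.2, 7.90, 17.5 and 3.53 in the PCC rats, with PCC replicate 4 highest and PCC replicate 5 among the HYP rats. AABR07025385.1 gave 0.759, 0.379, 0.371, 0.594 and 0.218 CPM in the WT rats, 2.196, 5.65, 2.33, 2.75 and 4.08 in the HYP rats and 3.85, 4.00, 5.39, 3.81 and 2.197 in the PCC rats, where HYP and PCC rats overlapped. All WT rats lay below all MENX rats for both genes. In the fit, the log2 fold change against WT was 3.85 ± 0.56 in PCC and 2.44 ± 0.44 in HYP rats for the former, and 2.96 ± 0.39 and 2.78 ± 0.38 for the latter.

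**Figure D2:**
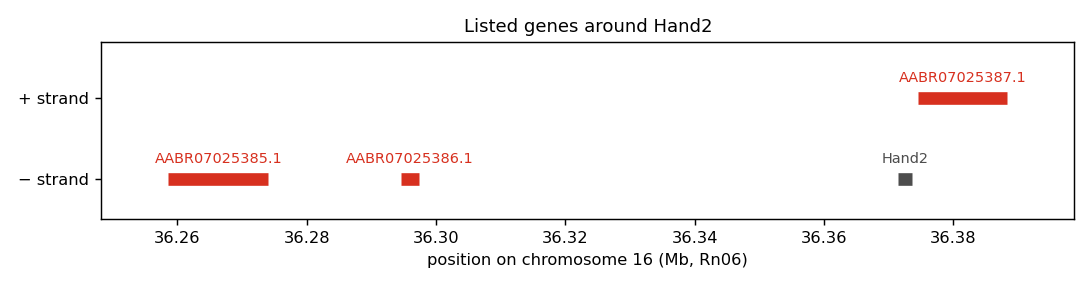
Listed genes around Hand2 on chromosome 16 (Rn06), with position in Mb on the horizontal axis and strand on the vertical axis; bars are gene bodies, lincRNA genes in red and the coding gene in grey. AABR07025387.1 starts 1047 bases from Hand2 on the opposite strand, and AABR07025386.1 and AABR07025385.1 lie downstream on the strand of Hand2.

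A divergent gene also lies beside Gata2, the gene of a zinc finger factor of the sympathoadrenal lineage. AABR07061382.2 (ENSRNOG00000054709, chromosome 4, 120129194 to 120133017, minus strand) starts 696 bases from Gata2 and gave 5.50, 5.16, 4.78, 3.36 and 2.61 CPM in the WT rats and 8.22, 10.1, 4.23, 9.52 and 13.9 in the HYP rats, without values in PCC rats. HYP replicate 3 lay among the WT rats, and the others lay above them. By edgeR, the log2 fold change of HYP against WT was 1.03 ± 0.31. Gata2 gave 109, 87.1, 80.3, 50.9 and 18.9 CPM in the WT rats and 225, 294, 158, 231 and 285 in the HYP rats, without overlap, and 1.71 ± 0.38 on the log2 scale. The shortest distance between divergent starts was that of Stk19 (ENSRNOG00000048929, chromosome 20, 4509823 to 4517131, minus strand), a symbol member named as a kinase gene, and Dxo, the gene of a decapping exonuclease, 176 bases apart. Stk19 gave 27.6, 22.5, 25.7, 21.5 and 18.6 CPM in the WT rats, 13.7, 8.96, 9.31, 14.1 and 11.8 in the HYP rats and 6.45, 4.48, 7.00, 5.09 and 9.69 in the PCC rats. WT rats lay above HYP rats without overlap, and PCC replicate 5 lay among the HYP rats. Dxo gave 96.7, 88.2, 114, 124 and 107 CPM in the WT rats, 112, 51.6, 78.8, 76.3 and 66.0 in the HYP rats and 45.9, 25.1, 39.9, 18.8 and 50.6 in the PCC rats, with WT and HYP rats overlapping and PCC rats below both. As fitted, the log2 fold change of PCC against WT was -1.88 ± 0.25 for Stk19 and -1.59 ± 0.25 for Dxo.

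The promoters of the coding partners are shown for Hand2 and Gata2, factors of the lineage, and for Dxo, the partner with the shortest distance. Partners of other members that moved with their member, such as Setd1b, are not shown. RefSeq promoters of the build GRCr8, around the gene start, were found for 8 of 11 partners of the divergent members. Capitals mark matches, on either strand, to TATAAA for the TATA box, CCAAT for the box of that name, GGGCGG for the GC box, ACGTG for the core of the hypoxia response element and AGATAA for the GATA site. None of these motifs contains another. Of 33469 promoters, 14.2% hold TATAAA, 37.5% CCAAT, 33.1% GGGCGG, 19.3% ACGTG and 11.6% AGATAA. The Hand2 promoter (chr16:37931439-37931738, minus strand) holds 2 matches to CCAAT with 1 match to GGGCGG, 1 match to ACGTG and 1 match to AGATAA. The Gata2 promoter (chr4:122216031-122216330, plus strand) holds 1 match to CCAAT, and the Dxo promoter (chr20:3999988-4000287, minus strand) 1 to CCAAT and 1 to GGGCGG. They hold 14, 16 and 30 CpG, where the median of all promoters is 7. A match describes letters and is not a binding site. Distances between genes above are those of Rn06.
Hand2: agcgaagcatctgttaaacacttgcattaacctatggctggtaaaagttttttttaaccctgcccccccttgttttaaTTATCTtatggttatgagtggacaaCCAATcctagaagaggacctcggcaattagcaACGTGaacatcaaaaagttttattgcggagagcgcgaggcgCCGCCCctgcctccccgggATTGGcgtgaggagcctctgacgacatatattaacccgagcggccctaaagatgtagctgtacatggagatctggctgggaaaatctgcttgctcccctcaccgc
Gata2: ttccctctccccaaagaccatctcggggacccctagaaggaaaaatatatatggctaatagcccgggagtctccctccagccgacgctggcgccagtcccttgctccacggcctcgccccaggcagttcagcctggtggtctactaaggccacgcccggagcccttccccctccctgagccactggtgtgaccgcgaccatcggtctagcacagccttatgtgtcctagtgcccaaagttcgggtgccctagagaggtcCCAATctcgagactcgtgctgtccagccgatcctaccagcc
Dxo: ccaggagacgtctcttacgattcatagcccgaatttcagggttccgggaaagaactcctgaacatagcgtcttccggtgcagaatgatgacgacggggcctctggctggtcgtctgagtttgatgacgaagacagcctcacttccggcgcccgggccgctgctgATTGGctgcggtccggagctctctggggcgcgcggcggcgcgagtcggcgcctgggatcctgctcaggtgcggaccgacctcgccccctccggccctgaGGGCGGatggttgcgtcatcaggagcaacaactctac

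Further divergent pairs differed in how their partners moved. AABR07006097.1 (ENSRNOG00000057099, chromosome 1, 219752584 to 219758885, minus strand) starts 298 bases from Pc, the gene of the anaplerotic enzyme pyruvate carboxylase, and gave 1.04, 1.04, 1.17, 1.19 and 1.02 CPM in the WT rats, 2.196, 2.18, 1.59, 2.24 and 1.58 in the HYP rats and 2.51, 1.64, 3.83, 5.47 and 2.15 in the PCC rats. All MENX rats lay above all WT rats, highest in PCC replicate 4. Pc gave 239, 244, 331, 245 and 333 CPM in the WT rats, 398, 321, 253, 402 and 487 in the HYP rats and 464, 529, 795, 1332 and 697 in the PCC rats, also highest in PCC replicate 4, with WT and HYP rats overlapping. With all rats, the log2 fold change of PCC against WT was 1.46 ± 0.35 for the member and 1.43 ± 0.28 for Pc. AABR07005535.1 (ENSRNOG00000051825, chromosome 1, 185353166 to 185356627, minus strand) starts 348 bases from Plekha7, the gene of an adherens junction protein, and gave 0.617, 0.663, 0.159, 0.132 and 0.0726 CPM in the WT rats, 0.502, 1.12, 1.65, 0.803 and 1.43 in the HYP rats and 2.23, 1.16, 1.61, 3.62 and 1.21 in the PCC rats. PCC rats lay above all WT rats, while HYP rats overlapped both. Plekha7 gave 6.60, 8.29, 4.03, 4.62 and 2.40 CPM in the WT rats, 24.4, 38.7, 20.9, 25.6 and 31.5 in the HYP rats and 78.5, 79.3, 73.8, 94.8 and 52.1 in the PCC rats, with no overlap between groups. From these values, the log2 fold change of PCC against WT was 2.40 ± 0.61 for the member and 3.78 ± 0.36 for Plekha7. AC107174.2 (ENSRNOG00000060513, chromosome 8, 48308783 to 48379819, minus strand) starts 2302 bases from Thy1, the gene of a surface glycoprotein of neurons, and gave 0, 0, 0, 0 and 0.218 CPM in the WT rats, 0.502, 0.784, 0.613, 0.975 and 1.12 in the HYP rats and 0.418, 0.481, 0.473, 0.238 and 1.34 in the PCC rats. Among WT rats, replicate 5 alone had reads, and HYP and PCC rats overlapped. The filter removed the gene, and no fold change is given. Thy1 gave 197, 223, 184, 142 and 54.2 CPM in the WT rats, 294, 269.7, 162, 262 and 287 in the HYP rats and 858, 551, 543, 530.5 and 487 in the PCC rats, highest in PCC replicate 1.

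AABR07036331.2 (ENSRNOG00000057941, chromosome 12, 38873769 to 38879161, plus strand) starts 4423 bases from Setd1b, the gene of a histone H3 methyltransferase, and gave 10.7, 11.5, 8.33, 13.6 and 10.3 CPM in the WT rats and 28.4, 26.7, 14.3, 15.1 and 15.2 in the PCC rats, without values in HYP rats. All values of PCC rats lay above all WT rats, highest in PCC replicates 1 and 2. Setd1b gave 21.6, 23.2, 33.0, 44.6 and 66.4 CPM in the WT rats and 57.9, 70.1, 83.9, 86.5 and 54.4 in the PCC rats, where WT replicate 5 lay among the PCC rats. In edgeR, the log2 fold change was 0.84 ± 0.26 for the member and 0.91 ± 0.26 for Setd1b, whose call was lost in 2 of 10 fits with 1 library left out. AABR07052730.3 (ENSRNOG00000060414), 4140 bases from the start of the integrin gene Itgav on chromosome 3, gave 1.80, 2.13, 0.637, 1.98 and 0.145 CPM in the WT rats, 0.251, 0.504, 0.490, 0.401 and 0.204 in the HYP rats and 0.0928, 0.0481, 0, 0.0951 and 0.302 in the PCC rats. WT replicate 5 lay among the MENX rats, and the filter removed the gene. Itgav gave -0.88 ± 0.22 in PCC against WT rats. In PCC against WT rats, the tested partners of 2 further members were not called. Rn60_1_2620.3 (ENSRNOG00000061408), an antisense gene 2708 bases from the start of Pyroxd2 on chromosome 1, gave 1.61, 1.14, 0.796, 1.06 and 1.09 CPM in the WT rats, 3.07, 3.75, 1.84, 2.06 and 1.63 in the HYP rats and 2.74, 4.38, 2.55, 2.81 and 2.11 in the PCC rats. Every value of the MENX rats lay above all WT rats. On these counts, the log2 fold change of PCC against WT was 1.31 ± 0.32 for the member and -0.79 ± 0.34 for Pyroxd2, which gave 103, 85.3, 72.6, 68.6 and 78.6 CPM in the WT rats, 71.7, 47.1, 54.1, 49.5 and 45.3 in the HYP rats and 25.5, 94.5, 39.7, 34.3 and 47.4 in the PCC rats. AC109891.1 (ENSRNOG00000061821, chromosome 7, 2679228 to 2688967, minus strand) starts 534 bases from the apolipoprotein gene Apof and 2402 bases from Stat2, the gene of an interferon signal transducer. It gave 2.94, 1.99, 3.08, 3.10 and 1.16 CPM in the WT rats, 1.88, 1.51, 2.14, 2.81 and 1.02 in the HYP rats and 0.789, 0.0481, 1.09, 0.190 and 0.646 in the PCC rats, with PCC rats below all WT rats and overlapping HYP rats. The log2 fold change of PCC against WT was -2.21 ± 0.59 for the member and -0.29 ± 0.14 for Stat2, whose WT and PCC rats overlapped and whose value changed sign without TMM. In the other comparisons, Pyroxd2 gave -0.66 ± 0.18 in HYP against WT rats and Stat2 gave -0.64 ± 0.14 in PCC against HYP rats. Apof was under 1 CPM in every WT and PCC rat and was removed by the filter.

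The largest group of neighbours was a row of 7 lincRNA genes, all on the plus strand, within 50657 bases of chromosome 12 (22338800 to 22389456), which ends 3874 bases from the facing gene Ephb4, a receptor for ephrin-B2. AABR07035782.1 (ENSRNOG00000057201), nearest to Ephb4, gave 28.2, 26.8, 21.8, 26.0 and 10.8 CPM in the WT rats, 13.7, 4.81, 12.2, 7.05 and 4.54 in the HYP rats and 8.03, 2.45, 9.36, 0.523 and 8.61 in the PCC rats. AABR07035780.3 (ENSRNOG00000058398), inside the row, gave 10.01, 8.29, 8.28, 9.17 and 4.79 CPM in the WT rats, 4.01, 1.40, 3.61, 2.81 and 2.75 in the HYP rats and 2.37, 1.25, 3.74, 0.190 and 2.93 in the PCC rats. In both genes WT rats lay above all PCC rats, with WT replicate 5 lowest of its group and PCC replicate 4 lowest of all rats. Here the log2 fold change of PCC against WT ranged from -2.05 for AABR07035782.1 to -1.80 for AABR07035780.2 over the 7 genes. Neighbours this close on 1 strand may share a transcript, so the 7 are not independent. Ephb4 gave 69.7, 59.0, 86.2, 87.6 and 147 CPM in the WT rats, 46.5, 42.3, 54.6, 77.3 and 67.1 in the HYP rats and 23.8, 14.5, 46.6, 14.6 and 57.6 in the PCC rats. Its PCC rats lay below all WT rats, lowest in replicates 2 and 4, and its log2 fold change was -1.53 ± 0.39, -2.05 ± 0.60 for AABR07035782.1 beside it. Near the T-box factor gene Tbx3 on the same chromosome, AABR07036413.1 gave 4.32, 4.97, 4.24, 5.08 and 7.41 CPM in the WT rats, 2.38, 2.01, 3.80, 3.50 and 2.45 in the HYP rats and 1.90, 0.481, 1.37, 0.0476 and 1.81 in the PCC rats and was without overlap at either step.

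Among close pairs that were not divergent, AC126640.1 (ENSRNOG00000054866, chromosome 10, 38534986 to 38536361, minus strand) faces Fstl4, the gene of a follistatin-like protein, 2790 bases away, and gave 0.285, 0.900, 0.0531, 0.462 and 0.0726 CPM in the WT rats, 1.13, 1.01, 0.735, 0.746 and 0.714 in the HYP rats and 5.48, 6.98, 4.44, 3.85 and 2.93 in the PCC rats. PCC rats lay above all others. Fstl4 gave 0.522, 0.189, 0.637, 0.462 and 0.0726 CPM in the WT rats, 1.13, 1.01, 0.674, 0.803 and 1.07 in the HYP rats and 4.22, 4.72, 6.90, 5.99 and 3.02 in the PCC rats, with PCC rats above all others as well. In the fit, the log2 fold change of PCC against WT was 3.60 ± 0.63 for the member, 4.38 without WT replicate 2, and 3.63 ± 0.48 for Fstl4. Against HYP the member's value was 2.33 ± 0.32. AC130741.1 (ENSRNOG00000056213, chromosome 16, 19806544 to 19807258, minus strand) faces Ankle1, the gene of an endonuclease, 2748 bases away, and gave 0, 0, 0.0531, 0.132 and 0 CPM in the WT rats, 0.753, 0.616, 0.490, 0.401 and 0.612 in the HYP rats and 0.511, 2.12, 1.13, 1.67 and 0.732 in the PCC rats. WT rats were at or near 0, and HYP and PCC rats overlapped. By edgeR, the log2 fold change of PCC against WT was 4.92 ± 0.77, 5.94 without WT replicate 4, and 3.21 ± 0.58 for Ankle1. Rn60_9_0428.1 (ENSRNOG00000046298, chromosome 9, 43143868 to 43166640, minus strand) lies 3998 bases upstream of the semaphorin gene Sema4c and gave 0.380, 0.568, 0.796, 0.462 and 0.218 CPM in the WT rats, 4.20, 1.74, 2.51, 2.47 and 2.35 in the HYP rats and 2.97, 10.8, 4.21, 6.47 and 4.05 in the PCC rats. All MENX rats lay above all WT rats, highest in PCC replicate 2. As fitted, the log2 fold change against WT was 3.49 ± 0.48 in PCC and 2.36 ± 0.35 in HYP rats. Sema4c, without WT values, gave 0.67 ± 0.21 in PCC against HYP rats and was not called. AABR07002910.1 (ENSRNOG00000061774), 462 bases from the gene Arhgap33, gave 1.47, 2.37, 1.38, 1.06 and 0.363 CPM in the WT rats, 3.76, 2.74, 1.96, 2.70 and 1.38 in the HYP rats and 4.13, 9.19, 2.88, 6.23 and 3.02 in the PCC rats. All values of PCC rats lay above all WT rats and overlapped HYP rats. With all rats, the log2 fold change was 1.85 ± 0.51, beside 1.68 ± 0.36 for Arhgap33.

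Close pairs with lower levels in PCC rats held AC139608.1 (ENSRNOG00000054147), 4253 bases from the splicing helicase gene Ddx46 on chromosome 17, which gave 2.23, 1.52, 1.27, 1.65 and 2.47 CPM in the WT rats, 1.19, 0.448, 0.919, 0.287 and 0.408 in the HYP rats and 0.278, 0.241, 0.520, 0.190 and 0.345 in the PCC rats. Every value of the MENX rats lay below all WT rats. From these values, the log2 fold change of PCC against WT was -2.55 ± 0.35, beside -1.73 ± 0.28 for Ddx46. AABR07049503.1 (ENSRNOG00000059476), 4228 bases from Ppap2b on chromosome 5, a lipid phosphatase gene, gave 1.14, 1.33, 3.29, 3.50 and 13.1 CPM in the WT rats, 3.64, 1.46, 2.57, 1.84 and 2.04 in the HYP rats and 0.557, 0.144, 0.946, 0.285 and 1.42 in the PCC rats. WT replicate 5 stood far above all others, and WT and PCC rats overlapped. In edgeR, the log2 fold change of PCC against WT was -2.67 ± 0.73, and -1.82 without WT replicate 5. Ppap2b gave -1.83 ± 0.30. AABR07044001.4 (ENSRNOG00000058847), 2514 bases from Mlycd, the gene of malonyl-CoA decarboxylase, gave 1.19, 1.04, 0.849, 0.792 and 1.02 CPM in the WT rats and 0.186, 0.0963, 0.378, 0.143 and 0.474 in the PCC rats, without overlap. On these counts, the log2 fold change was -1.96 ± 0.43, and Mlycd was lower too, with overlapping groups. Rn60_20_0066.11 (ENSRNOG00000052039) overlaps the gene body listed for the complement gene C4a on chromosome 20, on the same strand, and gave 2.23, 1.52, 1.27, 1.45 and 1.02 CPM in the WT rats, 0.251, 0.672, 0.858, 0.803 and 0.765 in the HYP rats and 0.325, 0.0963, 0.473, 0.190 and 0.991 in the PCC rats. All MENX rats lay below all WT rats. The log2 fold change of PCC against WT was -1.90 ± 0.53, and -2.50 without PCC replicate 5, beside -1.81 ± 0.23 for C4a. It forms a group of 3 with Tnxb and Stk19 between 4426689 and 4517131.

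Members and their nearest tested coding genes often lay on the same side of 0. In PCC against WT rats, the fold changes of member and neighbour had the same sign for 90 of 117 members (76.9%), and for 61.3% of 6503 coding genes and their own nearest coding gene. In HYP against WT rats this held for 50 of 72 members (69.4%; coding genes 60.7%), and in PCC against HYP rats for 35 of 47 (74.5%; coding genes 62.0%). The comparisons share samples, so these are not separate results. With gene bodies within 10 kb, the same side was found for 25 of 28, 12 of 13 and 12 of 12 members, and for 70.0%, 76.9% and 74.8% of coding genes. More than 100 kb apart it was 25 of 38, 16 of 31 and 15 of 25 members, and 52.7%, 52.7% and 54.9% of coding genes. Both genes of each pair had been called by the authors, several members share a neighbour, and the difference from coding pairs was not tested.

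**Figure D3:**
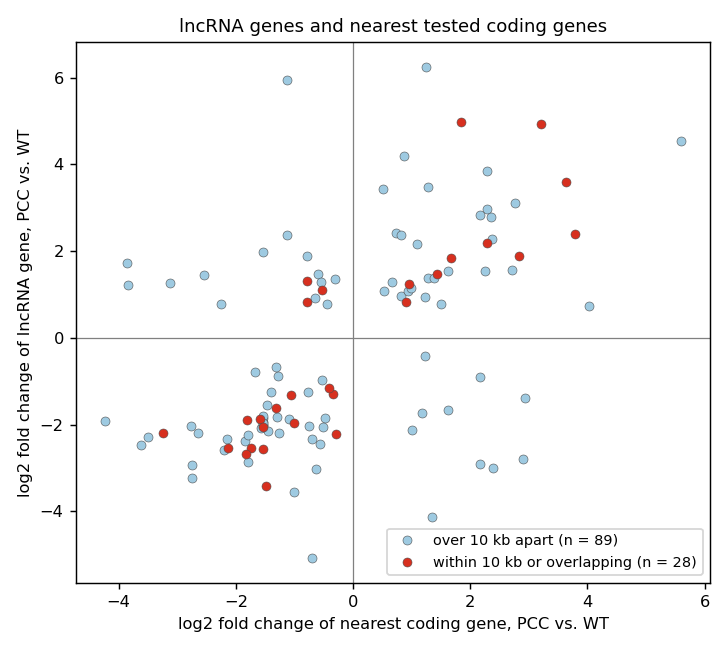
Log2 fold change of 117 lncRNA genes (vertical axis) against that of the nearest tested coding gene (horizontal axis), PCC vs. WT; each point is a pair, red where gene bodies overlap or lie within 10 kb (n = 28). Of all pairs, 90 lie to the upper right or lower left of 0, 25 of them red.

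Fixed lists of coding genes, near a member or not, were counted in the same fits. Over all tested genes, 46.7% rose and 38.5% fell (median 0.44) in PCC against WT, 39.5% and 32.5% (-0.37) in HYP against WT and 21.8% and 22.6% (0.43) in PCC against HYP. Of 20 sympathoadrenal transcription factors, 9 were tested in PCC against WT rats and 9 rose (median 2.21), 12 in HYP against WT and 11 rose (2.07), and 7 in PCC against HYP and 1 rose (0.72), and none fell in the edgeR fits. Of 24 imprinted coding genes, 14 were tested in PCC against WT rats, where 7 rose and 4 fell (median 1.15), 9 in HYP against WT, where 4 rose and 4 fell (-0.62), and 7 in PCC against HYP, where 2 rose and 2 fell (0.75). The noncoding RNAs H19, Meg3 and Airn of such loci were not listed. Of 18 RNA processing and chromatin partners of long noncoding RNAs, 9 were tested in PCC against WT rats, where 2 rose and 5 fell (median -0.54), 4 in HYP against WT, where 1 rose and 2 fell (-0.54), and 3 in PCC against HYP, where 2 fell (-0.69). Among these, Ezh2, the methyltransferase of the Polycomb complex that some long noncoding RNAs bind, had log2 fold changes of -2.71 ± 0.41 in PCC against WT and -1.39 ± 0.34 in PCC against HYP rats, where the call was lost in 5 of 10 fits with 1 library left out.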

How the data were processed

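Members and gene lists were chosen with earlier results of these data known. Per the submitters' notes, reads were aligned to Rn06 with HISAT2 2.0.5 and counted with featureCounts 1.5.0-p3. No strand setting of the counting was stated. The count values are raw reads per gene, deposited by the authors in their tables of called genes only, so genes outside these tables have no values. FPKM values were computed by the authors from these reads and gene lengths and are used as deposited to compare genes and, with counts and lengths, to recover the reads counted on genes behind CPM. For 31 members the length behind the FPKM differs from the listed length by more than 1 base. The signal values are counts divided by size factors by the authors, as deposited, and served to recover those factors. The authors' fold changes were not used, and each deposited p-value and its adjusted form, made by the authors' comparison, served only to recover how many genes they had tested: 18790 (PCC against WT), 18057 (HYP against WT) and 17454 (PCC against HYP).

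Each comparison was fitted over all listed genes with edgeR 4.0.16 (quasi-likelihood, TMM, filterByExpr) in R 4.3.3 with limma 3.58.1. Values of p were adjusted by Benjamini-Hochberg over these totals, and called under 0.05. DESeq2 1.42.0 was an alternative. CPM used the TMM sizes of all 15 libraries. Tables and figures were made in Python 3.11.15 (numpy 2.4.6, scipy 1.17.1, pandas 2.3.3, matplotlib 3.10.9). Named were, per comparison, the 5 called members with the largest fold change in each direction among those that averaged 1 CPM or more and whose groups did not overlap, the 5 members highest in FPKM, the symbol members, the 10 divergent members closest to a coding gene, and the 10 other members within 5 kb of one with the largest fold change in PCC against WT. Members at 0 in a group, without overlap at each step, in the rows of neighbours or with large fold changes outside these limits were named besides. The leaving out of 2 libraries together and the fits without symbol members were added after the data were seen. Names opening with Rn60 were treated as contig names. Lists were markers of 9 cell types, sympathoadrenal factors, imprinted genes and RNA partners. Planned pair correlations are not given because the samples fall into separate clusters by group.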

Additional observations from a re-analysis of the deposited data

Results flagged for a closer look

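A sample was named when the gap between it and the nearest other rat took up more of the range of its group of 5 than Dixon's 95% limit allows. The rule was applied to 320 groups of values of named members, their coding partners and the sums over members and markers, and named a sample 31 times. Chance alone does so in about 1 in 20 groups. All values are CPM, with the next value of the group beside each.

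Highest in the WT group were Sv2b in WT replicate 3 (0.690, next 0.132), Sdk1 in WT replicate 5 (184, next 79.2), Lace1 in WT replicate 5 (12.0, next 5.6), AABR07065124.2 in WT replicate 5 (3.41, next 1.75), AABR07052758.1 in WT replicate 5 (32.4, next 7.59), AC107174.2 in WT replicate 5 (0.218, next 0), AABR07049503.1 in WT replicate 5 (13.1, next 3.50), Tgfbi in WT replicate 4 (9.83, next 6.55), Chd8 in WT replicate 5 (172, next 103) and LOC689713 in WT replicate 3 (0.0531, next 0). Highest in the HYP group were Rpgrip1 in HYP replicate 2 (4.20, next 3.10), AABR07044837.2 in HYP replicate 3 (2.27, next 0.860), AABR07030363.1 in HYP replicate 3 (5.02, next 1.69), AABR07058017.2 in HYP replicate 1 (2.26, next 1.35), AABR07004228.1 in HYP replicate 2 (2.63, next 1.76), Mmd2 in HYP replicate 1 (163, next 105) and Fezf2 in HYP replicate 1 (0.125, next 0). Highest in the PCC group were Sv2b in PCC replicate 2 (12.7, next 2.55), AABR07043098.1 in PCC replicate 2 (9.10, next 2.81), AABR07058017.2 in PCC replicate 5 (0.818, next 0.241), AABR07055146.1 in PCC replicate 3 (1.37, next 0.232), AC107174.2 in PCC replicate 5 (1.34, next 0.481), Cbln1 in PCC replicate 2 (36.2, next 8.90), Thy1 in PCC replicate 1 (858, next 551), Mlph in PCC replicate 2 (10.1, next 5.06), Ddx46 in PCC replicate 1 (245, next 202) and Kiss1 in PCC replicate 5 (0.0861, next 0). Lowest in their groups were Astn1 in PCC replicate 5 (139, next 208) and Thy1 in HYP replicate 3 (162, next 262). The summed proliferation markers were highest in WT replicate 5 (24.0, next 17.2) and HYP replicate 2 (95.7, next 70.4).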

How the results depend on the processing

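No fold change of the 52 members named by rule changed sign: 104 were refitted in 1663 alternative fits. A call was lost in 149 of them and gained in 33, of which 108 and 13 had 1 library left out. Among the coding partners, Stat2 and Wbscr16 changed sign in PCC against WT with libraries scaled by counts summed over the listed genes, and no other did. The counts of called members and their medians moved further. Except where stated, the cause was not tested.

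With DESeq2, run without the filter, 80 members were called lower in PCC against WT, 43 higher and 50 lower in HYP against WT and 37 lower in PCC against HYP, with a median of -1.49 in the last. With libraries scaled by counts summed over the listed genes, without TMM, lower calls were 30, 5 and 5 in these comparisons, with medians of -0.43 in PCC against WT and -0.49 in HYP against WT. Without a filter on low counts, 16 members were called lower in PCC against HYP, with a median of -1.35.

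With at least 10 counts in every sample, 26 members were higher and 17 lower in PCC against WT and 16 and 19 in HYP against WT. The median turned to 0.86 in PCC against WT and 0.42 in PCC against HYP, a filter that by its construction removes genes nearly absent from a group. With a membership floor of 50 reads, 33 members were lower in PCC against WT, and the medians were -0.54 in PCC against WT and -0.20 in PCC against HYP. Without WT replicate 5 and PCC replicate 4 together, the median in PCC against WT was -1.13.

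With the replicate number as a replicate block, calls were 45 higher and 40 lower in PCC against WT, 24 and 23 in HYP against WT and 3 and 3 in PCC against HYP, and the medians were -0.90, -0.94 and -0.96. Deviations of equally numbered rats from their group means correlated between -0.155 and 0.262. With 5 rats per group, these values cannot settle whether equal numbers mark pairs.

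In leave-one-out fits, higher calls ranged from 41 to 51 and lower calls from 40 to 59 in PCC against WT, from 21 to 28 and from 17 to 40 in HYP against WT, and from 5 to 10 and from 1 to 18 in PCC against HYP. The medians ranged from -1.28 to -0.61, from -1.01 to -0.85 and from -1.20 to -0.92.

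Within 10 kb, the share of members on the same side of 0 as the nearest coding gene was 89.3% in PCC against WT, 92.3% in HYP against WT and 100% in PCC against HYP. Over all members at any distance, it was 70.9%, 66.7% and 68.1% by gene starts, beside 76.9%, 69.4% and 74.5% by gene bodies.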

Other observations

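Further marker lists were described in the same libraries. The summed CPM of 4 of 6 neuron markers, led by Stmn2, was 159, 158, 139, 125 and 105 in the WT rats, 352, 535, 334, 298 and 374 in the HYP rats and 386, 578, 299.8, 179 and 384 in the PCC rats. Nefh went the other way, with means of 55.8, 27.7 and 19.8 CPM in WT, HYP and PCC rats. That of 7 of 9 markers of sustentacular and Schwann cells, led by S100b, was 86.4, 108, 105, 111 and 59.5 in the WT rats, 80.5, 115, 117, 85.6 and 95.4 in the HYP rats and 60.3, 83.2, 110.4, 91.2 and 78.7 in the PCC rats. Its genes moved apart: S100b had means of 63.9, 31.0 and 7.12 CPM and Mbp of 16.1, 26.1 and 48.1 CPM in WT, HYP and PCC rats. Of 10 leukocyte markers, Cd8a alone had values, and it was 4.08, 4.17, 3.24, 3.17 and 0.944 in the WT rats, 2.196, 2.63, 1.78, 2.47 and 1.94 in the HYP rats and 0.928, 0.915, 1.42, 0.476 and 1.34 in the PCC rats (CPM). No adipocyte marker was listed, and 1 erythroid marker was listed, in PCC against HYP only.

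Markers were tested only if the authors had called them in the same comparison and samples, and nothing is read from the counts that follow. Over all tested genes, 46.7% were called higher and 38.5% lower in PCC against WT rats. The shares were 39.5% and 32.5% in HYP against WT and 21.8% and 22.6% in PCC against HYP rats. In PCC against WT rats, edgeR called 8 of 8 tested chromaffin markers higher and 9 of 11 cortex markers lower. It also called 6 of 6 proliferation markers higher, and 4 endothelial markers lower and 1 higher of 5. It called 5 sustentacular and Schwann markers higher and 2 lower of 7, 3 neuron markers higher and 1 lower of 4, and Cd8a lower. In HYP against WT rats, 5 of 6 chromaffin markers rose, 4 of 8 cortex markers fell, 6 of 6 proliferation markers rose and 4 of 4 endothelial markers fell, while 4 sustentacular and Schwann markers rose and 1 fell of 6, and 3 neuron markers rose and 1 fell of 4. In PCC against HYP rats, 2 of 7 chromaffin markers rose, 0 of 6 cortex markers were called, 6 of 6 proliferation markers rose and 1 of 3 endothelial markers rose, while 2 of 3 sustentacular and Schwann markers and Cd8a fell and the 1 neuron marker tested was not called.

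Only genes called by the authors were deposited, so long noncoding RNAs that did not differ, and all others below the authors' threshold, are not seen. Poly-A selection leaves out transcripts without a tail. Annotation of Rn06 is old, several members may be parts of coding transcripts, and overlapping genes may share reads. Groups differ in age, genotype and cell content at once, with 5 rats each. At low levels a few reads decide a fold change: 38 of 106 members without a symbol lay under 1 FPKM.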
